A study of Bos taurus with 2 samples.

Results

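The genes described here form the core circadian clock of mammals and were taken by name, with *CLOCK* and *NPAS2* as the positive arm and *PER1*, *PER2*, *PER3*, *CRY1*, *CRY2*, *NR1D1*, *NR1D2* and *DBP* as its output. A probe was assigned to one of these genes when its RefSeq accession matched that symbol. Of the 10 genes, 5 had probes (*NPAS2*, *PER2*, *CRY1*, *NR1D1* and *DBP*), which are 11 of the 43652 probes and 5 of the 26714 genes or transcripts considered. No probe was matched to *CLOCK*, *PER1*, *PER3*, *CRY2* or *NR1D2*, which were not analysed here. Total RNA came from the longissimus thoracis (LT) muscle of Japanese Black fetuses at 8.5 months post-conception, collected around day 260 of gestation. The low-nutrition (LN) pool held 4 fetuses of dams given 60% of their nutritional requirement, and the high-nutrition (HN) pool 4 fetuses of dams given 120%, in both cases during gestation and before it. Fetuses of lowest body weight were pooled for LN and those of highest body weight for HN, so that diet and the selection by weight cannot be told apart. All dams were inseminated with male-sorted semen of the same sire.

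In the circadian clock, CLOCK or its paralog NPAS2 pairs with ARNTL (also called BMAL1) and activates the genes of PER, CRY, NR1D (REV-ERB) and DBP. PER and CRY proteins then repress this activity, NR1D proteins repress *ARNTL* and *NPAS2*, and DBP carries the rhythm to further genes. In adult skeletal muscle the clock is known for daily rhythms of glucose uptake and fuel use. RNA of several of these genes varies with the hour of the day, and the hour at which the fetal muscles were collected is not given in the sources used here.

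Every pool was read by a single one-color Agilent array, so the spread between fetuses is unknown and a difference between the pools could not be tested. The number of arrays limits the precision. The median processed signal was 49.1 for HN and 48.4 for LN, with 74.5% and 70.9% of spots well above background, and no spot was saturated. The tissue label was checked with 8 muscle marker genes. Of these, 7 had a value, and their mean log2 signals in HN ranged from 14.5 (*DES*, desmin) to 18.0 (*MYLPF*, a fast myosin light chain). *TTN* was the marker without a matched probe. In pooled muscle RNA, fewer cells of a type and less RNA per cell cannot be told apart.

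The clock genes that could be measured differed between the pools by less than the study's fold thresholds. The difference between the pools is given throughout as log2 LN/HN, called the log2 difference. *PER2*, *CRY1*, *NR1D1* and *DBP* had a value, and their log2 differences lay between -0.08 (*DBP*) and 0.20 (*PER2*), with a median of 0.0030. The median over all 19554 genes with a value was -0.0033. Of the 4 genes, 2 were above 0 and 2 were below. The lower of the fold thresholds used in the study corresponds to a log2 difference of 0.32, and 0 of the 4 genes passed it in either direction. Over all genes, 18.0% passed it, 8.85% higher and 9.11% lower in LN. Past 2-fold were 0.711% of all genes on the higher side and 0.286% on the lower side. With 4 genes, a count of 0 does not set the clock apart from the other genes. All 4 are on the output side, so the output could not be set against the positive arm.

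**Figure D1:**
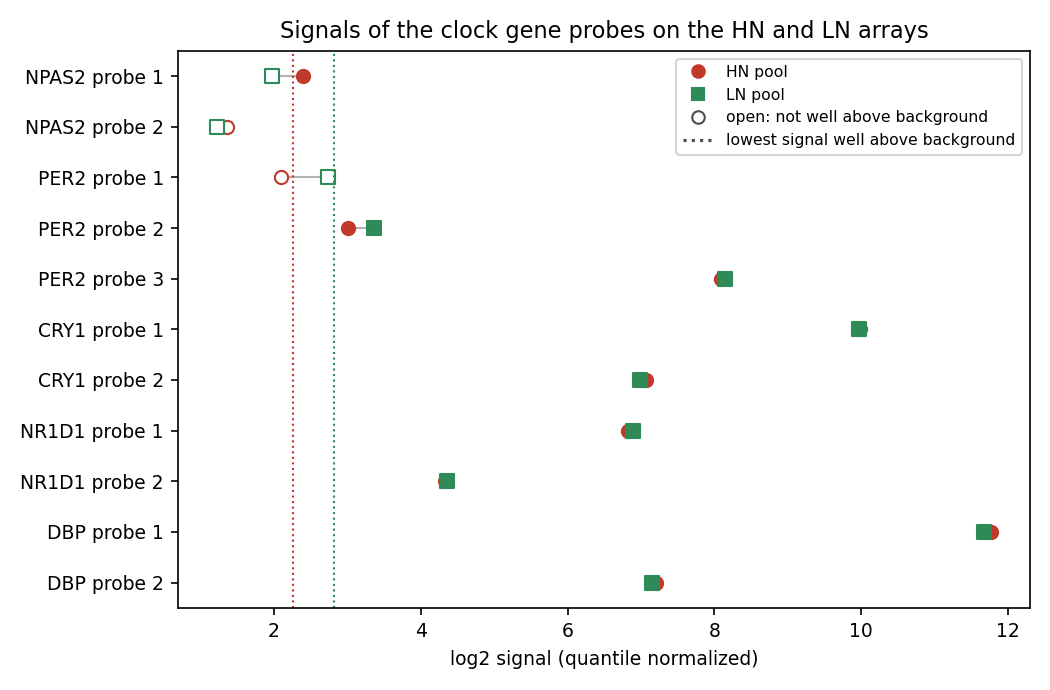
Quantile-normalized log2 signal of the 11 probes of *NPAS2*, *PER2*, *CRY1*, *NR1D1* and *DBP* in the HN pool (circles) and the LN pool (squares), 1 array each. Filled symbols were well above background, and the dotted lines mark the lowest such signal on each array (2.27 for HN, 2.82 for LN). The symbols of *CRY1*, *NR1D1* and *DBP* overlap, and both probes of *NPAS2* lie below the LN line.

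The plot of signals by probe shows *NPAS2* at the floor of the array. NPAS2 is a transcription factor that can replace CLOCK as the partner of ARNTL. Its probe A_73_103046 had a log2 signal of 2.40 in HN, just above the detection limit of that array (2.27), and of 1.98 in LN, which was not well above background. The processed intensities were 5.75 ± 1.3 in HN and 3.56 ± 1.4 in LN (± error estimate of the software for 1 spot). Because the HN signal did not exceed the LN detection limit of 2.82, no fold was given. The other probe, A_73_P265226, was not well above background on either array, with log2 signals of 1.37 in HN and 1.23 in LN. *NPAS2* therefore had no value, and a difference was not detectable at this signal.

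PER2, a repressor that forms complexes with CRY proteins, had the highest log2 difference of the 4 genes, 0.20. Its bright probe A_73_P407741 had log2 signals of 8.09 in HN and 8.15 in LN, a log2 difference of 0.06. The dim probe A_73_P358191 had log2 signals of 3.02 in HN and 3.36 in LN, a log2 difference of 0.35. The gene value was thus set mostly by the dim probe. Of the 8 clock gene probes measured on both arrays it was the 1 probe past 0.32, against 16.9% of all 30639 probes so measured and 42.9% of the 3201 with a mean log2 signal under 4. Its mean log2 signal lay between the centres of the steps of signal at 3 and 3.5, and inside the step at 3. The middle 50% of probes measured on both arrays ran from -0.03 to 0.50 at the lower step (700 probes) and from -0.27 to 0.29 at the higher (1571 probes), so that the dim probe lay inside the first range and above the second. A further probe, A_73_P093936, was not well above background on either array (log2 signals of 2.10 in HN and 2.74 in LN). In processed intensity, the bright probe had 269.9 ± 27.0 in HN and 283.9 ± 28.4 in LN, and the dim probe 8.57 ± 1.57 and 9.80 ± 1.88.

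CRY1, a cryptochrome that represses CLOCK and ARNTL, was the gene closest to 0, with a log2 difference of -0.04. Its probe A_73_120289 had log2 signals of 9.98 in HN and 9.97 in LN, and A_73_P091086 had 7.07 and 6.99. The log2 differences of the probes were -0.0047 and -0.08. Both were smaller than the error of a single spot, for which the SD of the log2 difference was 0.085 among 42 probes printed in several spots.

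NR1D1 (REV-ERB alpha) is a nuclear receptor that represses *ARNTL*, and its own gene is driven by CLOCK and ARNTL. Its log2 difference was 0.05. The probe A_73_P043426 had log2 signals of 6.83 in HN and 6.89 in LN, and A_73_P254401 had 4.33 and 4.36, with log2 differences of 0.06 and 0.03. The *NR1D1* gene overlaps *THRA*, the thyroid hormone receptor alpha gene, in the RefSeq annotation. *THRA* had a log2 difference of -0.13, and whether the *NR1D1* probes also bind its RNA was not tested.

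DBP is a transcription factor of the PAR-bZIP family (proline- and acid-rich basic leucine zipper), and its RNA is a strongly cycling clock output in adult tissues. Its log2 difference was -0.08, the lowest of the 4 genes. The bright probe A_73_112730 had log2 signals of 11.77 in HN and 11.66 in LN (log2 difference -0.10), and A_73_P040556 had 7.20 and 7.14 (-0.06). Processed intensities of the bright probe were 3436 ± 344 in HN and 3301 ± 330 in LN, which differ by less than the error estimate of either.

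The software also gives an error estimate for each spot. By these estimates, the 95% interval of the log2 difference held 0 for all 8 probes measured on both arrays, as it did for 92.1% of all probes so measured. It lay within 2-fold in both directions for 7 of them, and the exception was the dim *PER2* probe (-0.40 to 1.10). For the brighter probe of each gene the interval ran from -0.50 to 0.30 (*DBP*), from -0.40 to 0.40 (*CRY1*), from -0.34 to 0.46 (*NR1D1*) and from -0.34 to 0.46 (*PER2*). The standard error behind these intervals was at least 0.20 for every probe, larger than the SD between repeated spots given above, so that no interval on the array could lie within 0.32 on both sides. These intervals cover the array measurement and leave out the variation between fetuses.

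**Figure D2:**
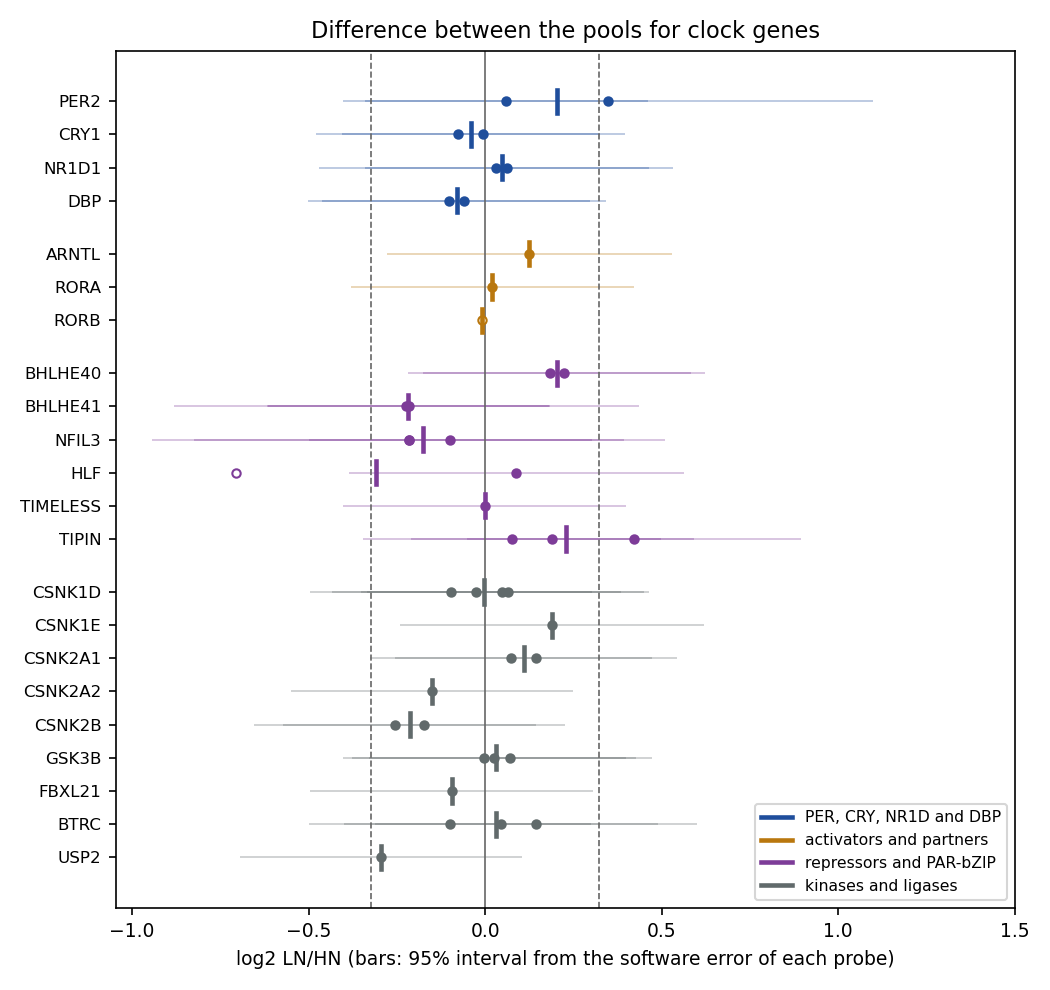
Log2 LN/HN of *PER2*, *CRY1*, *NR1D1*, *DBP* and 18 other clock genes. Points are probes (open where a probe was dim on 1 array), thin bars the 95% interval from the software error of probes measured on both arrays, thick ticks the gene means, and dashed lines mark a log2 difference of 0.32 in both directions. All 22 gene means lie between the dashed lines, and 10 of them are above 0.

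The rest of the clock was described with 3 hand-written lists. Of their 22 genes, 18 had a value, 8 above 0 and 10 below. Of these, 0 passed 0.32, against 18.0% of all genes, and the median log2 difference was -0.0018, close to that of all genes. The share of all probes past 0.32 fell with mean log2 signal, from 42.9% under 4 to 6.4% from 10 up. The 18.0% is thus not a share at like signal, and the count of 0 was not tested against it. The 18 genes were read by 38 probes, of which 35 gave a fold. Of the 33 measured on both arrays, 1 was past 0.32 (a *TIPIN* probe), against 16.9% of all probes so measured, and the 95% interval held 0 for all 33, against 92.1%. Of the others, the *HLF* probe that was dim in LN was also past 0.32.

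The activators and partners had a value for 3 of 4 genes. *ARNTL*, the obligate partner of CLOCK and NPAS2, had log2 signals of 6.44 in HN and 6.56 in LN from 1 probe, a log2 difference of 0.12. It was thus the one gene of the activating complex with a value, and its interval ran from -0.28 to 0.53. The ROR receptors activate *ARNTL* at the sites that NR1D proteins also bind. *RORA* had log2 signals of 7.84 in HN and 7.86 in LN, a log2 difference of 0.02. *RORB* was measured by 1 probe that was dim in LN (-0.0085), and it ranged down to -0.24 under other scalings. No probe was matched to *ARNTL2*.

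The repressors and PAR-bZIP relatives had a value for 6 of 8 genes, of which 4 were below 0. BHLHE40 and BHLHE41 (DEC1 and DEC2) are paralogs that compete with CLOCK and ARNTL at their binding sites. *BHLHE40* had mean log2 signals of 11.04 in HN and 11.24 in LN, a log2 difference of 0.20 with probes at 0.18 and 0.22. *BHLHE41* had 8.30 and 8.08, a log2 difference of -0.22, at which all 3 of its probes stood, and -0.13 with the normexp background correction. The paralogs differed in sign, each with probes close together, and neither passed 0.32. The *BHLHE41* probe A_73_P260226 was dim (log2 signals of 3.55 in HN and 3.33 in LN). For every probe of both genes the 95% interval held 0. NFIL3 opposes DBP at its binding sites, and *NFIL3* had a log2 difference of -0.18, with 3 probes between -0.22 and -0.10. Its bright probe had -0.10, and its dim probes (log2 signals of 3.95 and 3.30 in HN) had -0.21 and -0.22. *NFIL3* ranged from -0.30 to -0.03 under the alternatives.

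*HLF*, a relative of *DBP*, was the lowest of the lists at -0.31, and its probes disagreed. The one measured on both arrays had a log2 difference of 0.09. The other had -0.71 as measured, but was dim in LN. *HLF* was past 0.32 on the lower side under 3 other scalings of the arrays, down to -0.46 under scaling to the 75th percentile, and at 0.09 without the dim probe. *TIMELESS*, a relative of the fly clock gene that acts in DNA replication, had a log2 difference of -0.0014. Its partner *TIPIN* had 0.23, with 3 probes between 0.08 and 0.42, and stood at 0.12 with normexp. No probe was matched to *CIART* or *TEF*.

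The kinases and ubiquitin ligases that set the life span of PER and CRY proteins had a value for 9 of 10 genes, 4 above 0 and 5 below, with a median log2 difference of -0.0022. The casein kinase *CSNK1D*, which marks PER proteins for breakdown, had -0.0022 with 4 probes between -0.10 and 0.06. *CSNK1E* had 0.19 from 1 of its 2 probes, and lay between -0.02 and 0.19 under the alternatives, near 0 in several of them and below 0 under scaling to the 75th percentile. The lowest value was that of *USP2*, a deubiquitinase whose RNA follows the clock, at -0.30 from 1 probe (log2 signals of 8.17 in HN and 7.87 in LN), followed by *CSNK2B*, a subunit of casein kinase II, at -0.21.

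**Figure D3:**
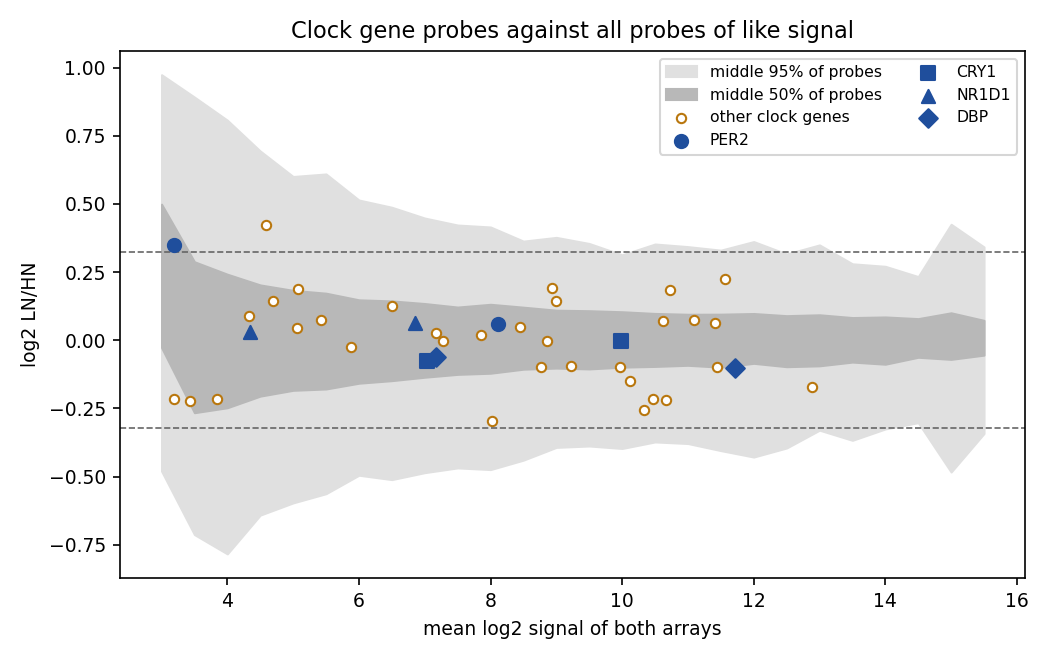
Log2 LN/HN against the mean log2 signal of both arrays for probes measured on both. Filled symbols are *PER2*, *CRY1*, *NR1D1* and *DBP*, open circles the other clock genes, grey bands the middle 50% and 95% of all such probes in steps of signal, and dashed lines a log2 difference of 0.32 in both directions. The bands widen at low signal, and the clock gene probes lie within the wider band.

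The spread of all probes narrowed with signal, as the plot against signal shows. The robust SD of the log2 difference was 0.40 for probes with a mean log2 signal under 4, 0.28 from 4 to 6, 0.20 from 6 to 8, 0.16 from 8 to 10 and 0.13 above 10. Set against the probes of its own range, each of the 8 clock gene probes measured on both arrays lay within 1 such SD of 0. By gene, the size of the log2 difference of *CRY1* was larger than that of 17.2% of all genes, that of *NR1D1* larger than 19.5%, that of *DBP* larger than 32.1% and that of *PER2* larger than 65.8%.

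Genes known to cycle in adult skeletal muscle were described next to the clock, from a list of 10 genes with 8 values. Their median log2 difference was -0.0062, and 3 of them passed 0.32, against 18.0% of all genes. *UCP3*, a mitochondrial uncoupling protein of muscle, had a log2 difference of -2.12 in both of its probes, 1 of them dim in LN. *PDK4*, the kinase that shuts off pyruvate dehydrogenase, had -1.28 over 8 probes. *SLC2A4*, the insulin-responsive glucose transporter GLUT4, had 0.54, with 4 probes between 0.21 and 1.09. The dimmest probe gave 1.09, and the others lay between 0.21 and 0.46. After the normexp background correction the log2 differences of these genes were smaller, at -0.86 for *UCP3*, -0.84 for *PDK4* and 0.33 for *SLC2A4*. By qRT-PCR the study found *PDK4* lower in LN as a trend only. It also refers to an earlier observation of downregulated GLUT4 expression, opposite in direction to *SLC2A4* here. *MYOD1*, a muscle transcription factor activated by CLOCK and ARNTL, had mean log2 signals of 8.41 in HN and 8.40 in LN, a log2 difference of -0.01.

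Glucocorticoids act on clock genes in peripheral tissues, in particular on *PER* genes. A list of 8 glucocorticoid-induced genes had a median log2 difference of -0.0026, with 1 gene past 0.32, against 18.0% of all genes. This was *FKBP5*, a co-chaperone of the glucocorticoid receptor, at 1.28 with probes at 1.17, 1.30 and 1.35. *KLF9* had 0.30 with probes at 0.19 and 0.41, and *TSC22D3*, also called GILZ, had 0.03.

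Markers of other cell types were not at equal levels in the pools. All 6 endothelial markers were below 0 (median log2 difference -0.24, from -0.39 for *CLDN5* to -0.16 for *ESAM*), and all 5 fibroblast markers were above 0 (median 0.33). Of the 5 neutrophil markers with a value, 3 were past 2-fold higher, against 0.711% of all genes. The largest was *MPO* (8.62-fold), as measured from an HN signal that was not well above background. The other 2 of the 5 were below 0, *CXCR2* at -0.79 (a limit, dim in LN) and *ELANE* at -0.13. The macrophage markers had a median of -0.29 and the adipocyte markers of 0.22. The erythroid markers had a median of -0.06, with *SLC4A1* giving no fold. Their part in the values of the clock genes was not tested.

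**Figure D4:**
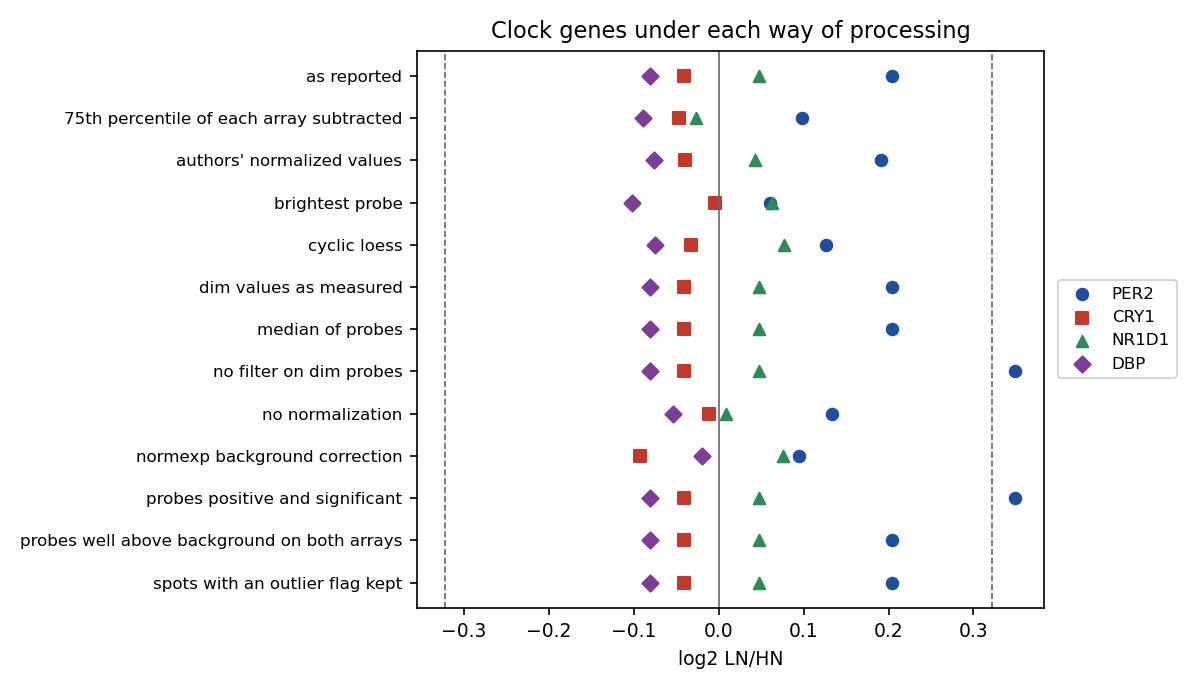
Log2 LN/HN of *PER2*, *CRY1*, *NR1D1* and *DBP* as reported and under 12 alternative ways of processing the arrays, with dashed lines at a log2 difference of 0.32 in both directions. *CRY1* and *DBP* stay below 0 and *PER2* above 0 throughout, *NR1D1* is below 0 under 1 alternative, and *PER2* passes the dashed line under 2.

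The small differences of the clock genes were followed over 12 other ways of processing. The log2 difference of *PER2* ranged from 0.06 to 0.35, that of *CRY1* from -0.09 to -0.0047 and that of *DBP* from -0.10 to -0.02. *NR1D1* ranged from -0.03 to 0.08. It was below 0 under scaling to the 75th percentile, where the median of all genes was -0.04. *PER2* passed 0.32 when its dimmest probe was included, and was at the low end of its range with the brightest probe alone. Of the 18 other clock genes, 12 stayed on 1 side of 0 in every setting that gave a value.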

How the data were processed

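Agilent Feature Extraction 11.0.1.1 gave, per the submitters' processing notes and the file headers, the intensity of each spot, which the authors deposited background-subtracted and detrended, without scaling between arrays. The authors also deposited a table of log2 values, judged so from the values, that they made by the quantile method (correlation across probes with the log2 signals used here 0.9997 for HN and 0.9994 for LN, median of each column 8.03).

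Log2 intensities of 43803 non-control spots were normalized by the quantile method (limma 3.58.1, R 4.3.3), 13 spots with an outlier flag were removed, and repeated spots were averaged by probe. A probe well above background on 1 array took, for the other array, the lowest signal well above background there or its own value if higher. A gene is the mean of its probes with a fold. The alternatives included normexp (offset 50, median spot signals). Accessions of 26742 probes matched 12603 symbols of ARS-UCD2.0, used for names and overlaps. The array was designed on an older assembly. Named genes were all clock genes of the set, the activator and repressor lists, and those past a log2 difference of 0.32 in the kinase, muscle and glucocorticoid lists. Genes below it in these lists (such as *USP2*, *MYOD1* and *KLF9*) and the named cell type markers were chosen after their values were seen. A few genes of the clock and erythroid lists, taken out whatever their values, are not reported here and not counted. Genes and lists were chosen with earlier results of these data known. The gene step was tested on simulated data, with probes well above background on both arrays and planted changes of 2-fold or more. Probes dim on 1 array and smaller changes were not simulated. Python 3.11.15 was used.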

Additional observations from a re-analysis of the deposited data

How the results depend on the processing

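Each group had 1 array, so variation between fetuses was not measured and no array could be left out. No paired analysis was possible because each group holds 1 pool. Of the 4 genes with a value, 0 were past a log2 difference of 0.32 as reported. The count was also 0 under 9 of 12 alternatives. It was 1 of 5 with dim values as measured (*NPAS2*), without a filter on dim probes (*PER2*) and with probes that only had to be positive and significant (*PER2*), settings in which 20.3%, 25.6% and 29.2% of all genes passed. The median of the output genes lay between -0.04 and 0.03 under all 12. The positive arm had no value as reported, because *CLOCK* was unmatched and *NPAS2* gave no fold. From *NPAS2* alone it was -0.42 with dim values as measured, -0.28 without a filter and with positive and significant probes, and -0.06 after the normexp correction. The output median minus this value was 0.43, 0.28, 0.28 and 0.09 in the same order. The other 8 alternatives gave no positive arm. These values rest on signals near or below the detection limit. Low signal limits *NPAS2*, *RORB*, *HLF* and the dim probes of *PER2*, *NFIL3* and *BHLHE41*.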
